A study of Mus musculus with 83 samples.

Results

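The Wnt ligands, receptors and antagonists examined here were the protein-coding genes of the count table whose symbol was Wnt, Fzd, Rspo, Sfrp or Dkk followed by a number, together with Wif1, Frzb, Lrp5, Lrp6, Porcn, Wls, Ror1, Ror2 and Ryk. The rule found 49 genes among 37764 listed genes, of which 19326 were protein-coding. They were read in bulk RNA of the colon, by the methods its proximal section, of 83 male C57BL/6J/Ukj mice, with 1 library for each mouse and only males. The mice differed in age and carried no named allele or treatment: 16 were 3 months old, 16 were 9 months, 16 were 15 months, 17 were 24 months and 18 were 28 months. The ages were compared to ask how gene activity in the gut moves over adult life, and whether it does so in a straight line.

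Wnt proteins are secreted signals that carry a lipid, attached by Porcn, and are brought to the cell surface by Wls. At a receiving cell they bind a Frizzled receptor with the coreceptor Lrp5 or Lrp6, which stabilises beta-catenin, or they act through Ror and Ryk without it. R-spondins raise the response by keeping Frizzled receptors at the surface, whereas Sfrp proteins, Frzb and Wif1 bind Wnts outside the cell and Dkk proteins such as Dkk1 block the Lrp coreceptors. In the intestine the stroma below the crypts is a main source of Wnts and R-spondins, and the epithelial stem cells at the crypt base depend on them.

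Gene counts came to 23026370 read pairs in the shallowest library and 75838290 in the deepest (median 35495123). Libraries had been prepared in 3 batches, each with 4 to 7 mice of every age. The tissue carried its defining RNA: the 6 markers of absorptive colonocytes summed to between 7129 and 14740 CPM (counts scaled to the normalized library total), and no gene of any marker list was at 0 in every mouse. In all, 5 libraries stood apart from their age, replicates 10 and 16 of 3 months, 10 of 9 months, 16 of 15 months and 13 of 28 months, with a mean absolute log2 deviation of 0.315 to 0.370 against 0.284 for the next library. The 7 smooth muscle markers summed to between 885 and 5423 CPM at 3 months and between 2663 and 4947 CPM at 28 months, and 0 of the 7 passed the test between these ages (edgeR, adjusted p below 0.1), so that the youngest mice differed most from each other in muscle RNA. In bulk tissue fewer cells of a type and less RNA per cell cannot be told apart.

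Of the 49 genes, 38 had enough counts to be tested, among them all 15 receptors, 12 of 20 ligands and secretion genes, 3 of 4 R-spondins and 8 of 10 antagonists. The other 11 stayed below the filter. They were the Wnt genes Wnt16 (426 counts over all mice), Wnt3 (252), Wnt9b (178), Wnt7b (72), Wnt8b (62), Wnt8a (20), Wnt1 (6) and Wnt7a (5), with Rspo4 (48), Dkk1 (139) and Dkk4 (6). Such counts do not show that these genes are absent from every cell of the colon, only that they were near the limit of detection in this bulk RNA.

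By TPM, which is a level per transcript length, receptors dominated. Fzd5 was highest with 76.5 ± 10.1 TPM (SD, n = 83), followed by Wls with 45.6 ± 4.48, Ryk with 38.3 ± 2.61, Lrp6 with 34.8 ± 3.54 and the antagonist Dkk3 with 33.1 ± 5.52. Of the ligands Wnt5a was the highest with 8.26 ± 1.39 TPM, then Wnt2b with 5.57 ± 1.16, Wnt4 with 4.19 ± 0.831 and Wnt5b with 3.89 ± 0.696. Wnt4 and Wnt5b lay within each other's spread, as did Lrp6 and Dkk3. Among R-spondins Rspo3 (3.62 ± 0.871 TPM) lay above Rspo1 (1.27 ± 0.733) and Rspo2 (0.261 ± 0.0894). The 49 genes together made up between 373 and 489 TPM at 3 months and between 408 and 498 TPM at 28 months.

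**Figure D1:**
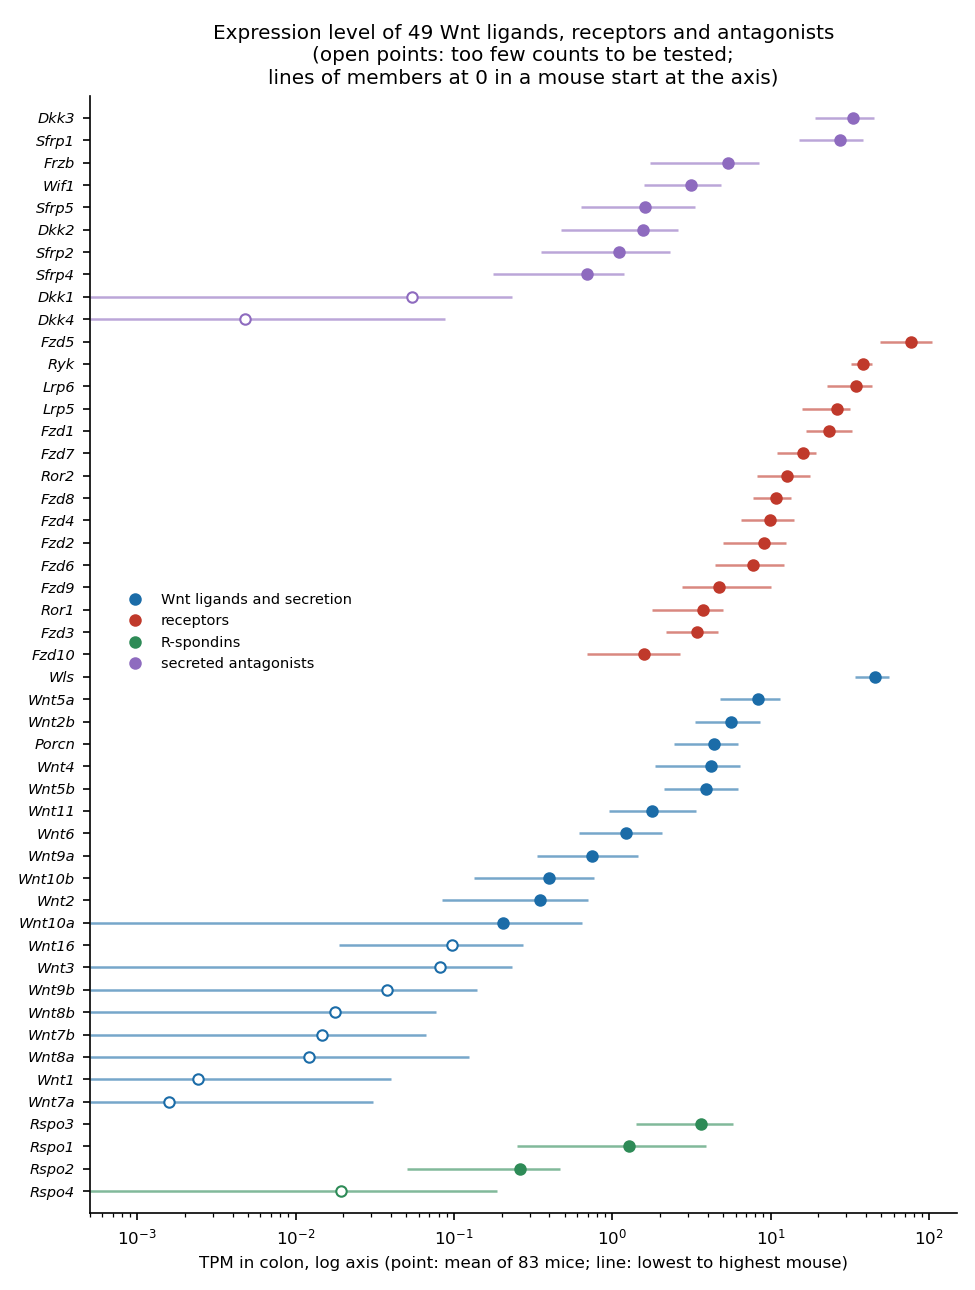
Mean TPM over 83 mice (point) and range from the lowest to the highest mouse (line) of each of the 49 genes, on a log axis, coloured by role. Fzd5 lies highest at 76.5 TPM, and open points mark the 11 genes with too few counts to be tested.

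Old mice, of 28 months, differed from those of 3 months in 14 of the 38 tested genes (36.8%), with 10 higher and 4 lower (edgeR quasi-likelihood test of age beside library batch, Benjamini-Hochberg adjusted p below 0.1 over all genes). Of all 18325 genes tested 49.4% differed, 23.5% higher and 25.9% lower, so that the share called was not above that of all genes. Their median log2 difference was 0.11, beside -0.0087 over all genes. By role, 2 of 3 R-spondins, 5 of 8 antagonists, 4 of 15 receptors and 3 of 12 ligands and secretion genes differed. In each of the 14 the values of old and young mice overlapped. Without the 5 libraries that stood apart, 18 were called, 12 higher and 6 lower, and these held all 14.

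**Figure D2:**
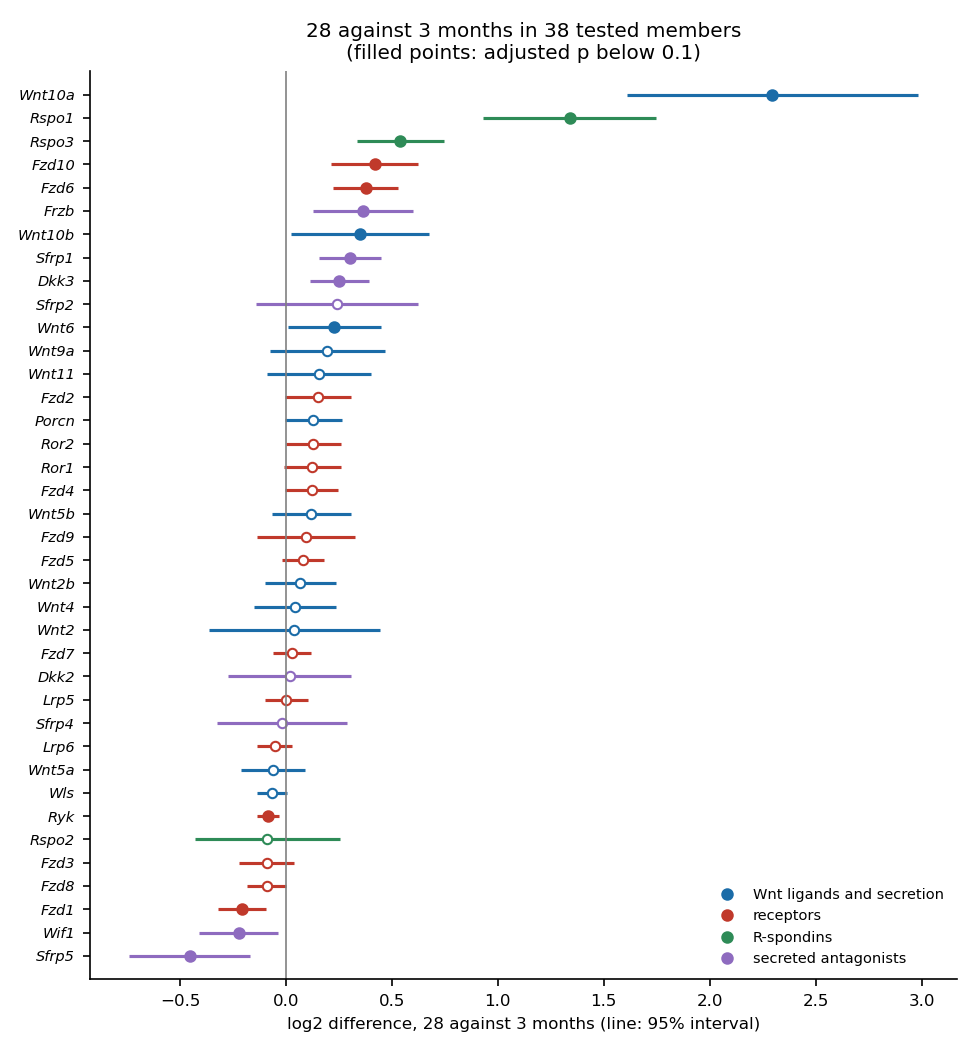
Log2 difference between 28 and 3 months (point) with its 95% interval (line) for the 38 tested genes, coloured by role. Wnt10a (2.30) and Rspo1 (1.34) lie apart from the others, which are between -0.45 and 0.54.

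The R-spondins held some of the clearest differences. Rspo1, which encodes R-spondin 1 and lies on chromosome 4 (GRCm38 chr4:124986430-125009099, plus strand), ranged at 3 months from 0.292 to 1.08 CPM with a median of 0.488, and at 28 months from 0.550 to 2.40 CPM with a median of 1.30. All 18 of the oldest mice lay above the median of the youngest, although the groups overlapped. The log2 difference was 1.34 (SE 0.21, adjusted p = 2.09e-07, edgeR), a 2.53-fold level, and it was 1.13, 1.42 and 1.52 within the 3 library batches. Rspo1 had mean levels of 0.505 ± 0.182 CPM at 3 months (SD, n = 16), then 0.612 ± 0.345, 0.651 ± 0.244 and 0.895 ± 0.401 at 9, 15 and 24 months (n = 16, 16 and 17) and finally 1.29 ± 0.501 at 28 months (n = 18). Of the steps between neighbouring ages that from 24 to 28 months passed the test (log2 difference 0.52, SE 0.19, adjusted p = 0.0840), whereas that from 15 to 24 months, of 0.48, did not (SE 0.21, adjusted p = 0.143).

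Rspo3, the most abundant R-spondin and a product of stromal and endothelial cells (chr10:29452416-29535867, minus strand), ranged from 1.5 to 4.64 CPM with a median of 2.58 in the youngest mice and from 2.79 to 5.67 CPM with a median of 4.24 in the oldest. Again all 18 old mice exceeded the median of the young. The log2 difference was 0.54 (SE 0.11, adjusted p = 2.17e-05), with 0.57, 0.68 and 0.41 in the batches, and no step between neighbouring ages passed the test, except that from 24 to 28 months (0.24, adjusted p = 0.0249) with scores of smooth muscle, fibroblast and colonocyte markers as covariates. Rspo2 had a median of 0.422 CPM at 3 months and 0.447 CPM at 28 months, and its difference lay between -0.43 and 0.25 (95% interval), so that a change of the size seen in Rspo3 in the upward direction lay outside it.

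Markers of other cells moved with age beside Rspo1 and Rspo3. Between 3 and 28 months 49.4% of all genes were called, 23.5% higher and 25.9% lower. All 4 mesothelium markers (Msln, Upk3b, Lrrn4, Wt1), genes of the serosal covering of the gut, were higher at 28 than at 3 months, with log2 differences of 1.05, 1.25, 1.47 and 1.30. They summed to between 1.29 and 5.94 CPM at 3 months and between 2.67 and 13.7 CPM at 28 months, and none was at 0 in any mouse. Across the 83 mice the deviations of Rspo1 from the mean of its age and batch went with those of the mesothelium score, the mean log2 CPM of the 4 markers (Pearson r = 0.797, Spearman rho = 0.776, permutation p = 1e-05 for each, the smallest that 100000 resamples can give; adjusted p = 9.33e-05 and 0.00014 over the 14 genes called at 28 against 3 months). It was 0.759 without the 2 mice farthest from the median score and 0.810, 0.797 and 0.817 within the batches. With this score as a covariate, an alternative chosen after seeing the data, the Rspo1 difference between 28 and 3 months was 0.55 (SE 0.14, adjusted p = 0.00121), and that of Rspo3 was 0.38 (SE 0.11, adjusted p = 0.00392), but the Rspo1 step from 24 to 28 months was 0.21 and did not pass (SE 0.12, adjusted p = 0.282). Rspo3 went with the score less closely, with r = 0.427 and rho = 0.409 (permutation p = 4e-05 and 0.00015, adjusted 0.00014 and 0.000525), 0.409 without the 2 farthest mice, and 0.584, 0.405 and 0.294 within the batches. Of the 14 genes 10 had an adjusted permutation p below 0.1 by r and 9 by rho, the one between being Ryk (r = 0.247, adjusted p = 0.0375; rho = 0.185, adjusted p = 0.133). The smallest r in size among the 10 was that of Wnt6 (-0.212, permutation p = 0.0558, adjusted 0.078), with 0.00646, -0.510 and -0.135 in the batches. Deviations were shuffled over all mice and not within age and batch, which tends to make these p-values too small. The call of Wnt6, nearest to the threshold, is therefore uncertain. A size of 0.212 was reached by 71.4% of the 14 and 60.5% of the 38 tested genes. The shares were 26.7% of all genes tested besides the markers and 26% of those called at these ages. This limit was set by the 14 genes, and the shares are a description with no test. The 4 lymphatic endothelium markers, 3 of which were higher with age, summed to between 39.5 and 52.6 CPM at 3 months and between 42.2 and 68.3 CPM at 28 months, and all 4 blood endothelium markers were higher, with sums of 88.9 to 109 CPM and 98.7 to 145 CPM. The part of the endothelial markers in the Rspo3 difference was not tested.

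**Figure D3:**
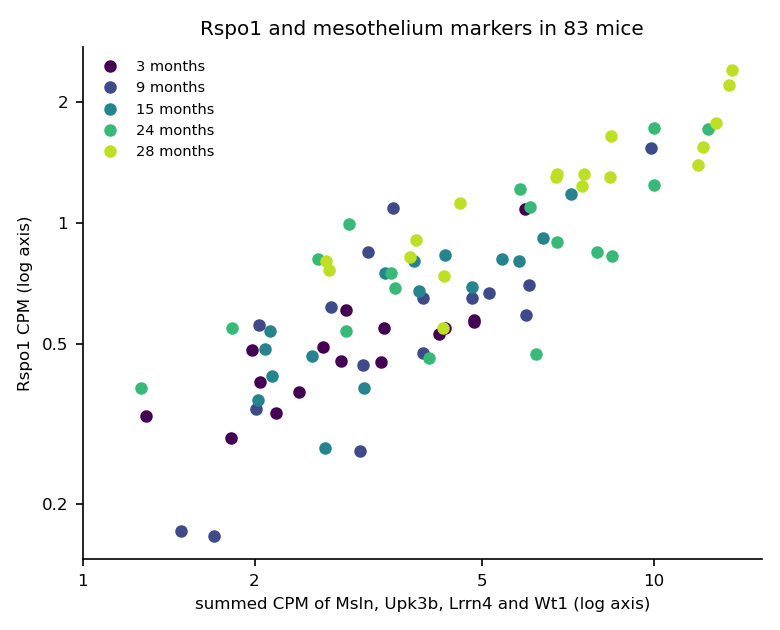
Rspo1 CPM against the summed CPM of the mesothelium markers Msln, Upk3b, Lrrn4 and Wt1 in each of 83 mice, both on log axes, coloured by age. Mice with high marker sums also have high Rspo1, and 28-month mice reach a marker sum of 13.7 CPM and 2.40 CPM of Rspo1.

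The stretch around the annotated start of Rspo1 is shown with those of the receptor gene Fzd10 and the antagonist gene Sfrp5, described below. The 3 differed with age, and Fzd10 and Sfrp5 held the most and the fewest CpGs of the called genes with a promoter found. Sfrp5 still lay above the median of 13 CpGs over protein-coding promoters. Each is the 300 bases from 250 before to 50 after the RefSeq start on GRCm38.p6, written 5′ to 3′ on the gene's own strand with each CpG in capitals. They are chr4:124986180-124986479 (plus) for Rspo1 with 29 CpGs and 69% G and C, chr5:128600856-128601155 (plus) for Fzd10 with 45 CpGs and 77.7%, and chr19:42202203-42202502 (minus) for Sfrp5 with 15 CpGs and 61.3%. For Rspo1 and Sfrp5 the RefSeq start is also that of the gene model used for positions and exon lengths here, whereas the Fzd10 window lies wholly inside its model.
Rspo1: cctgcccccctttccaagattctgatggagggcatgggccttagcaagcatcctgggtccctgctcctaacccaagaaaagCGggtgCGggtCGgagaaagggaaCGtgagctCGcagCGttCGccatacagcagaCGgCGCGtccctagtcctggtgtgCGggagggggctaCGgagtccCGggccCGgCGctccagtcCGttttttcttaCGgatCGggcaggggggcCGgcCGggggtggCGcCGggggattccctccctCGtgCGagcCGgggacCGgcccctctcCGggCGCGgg
Fzd10: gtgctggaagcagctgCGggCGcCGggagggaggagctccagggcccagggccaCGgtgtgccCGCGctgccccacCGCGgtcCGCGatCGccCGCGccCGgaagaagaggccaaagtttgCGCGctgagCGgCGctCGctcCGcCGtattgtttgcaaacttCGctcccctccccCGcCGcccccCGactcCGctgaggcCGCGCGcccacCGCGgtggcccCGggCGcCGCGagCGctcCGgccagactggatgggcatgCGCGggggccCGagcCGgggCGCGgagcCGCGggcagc
Sfrp5: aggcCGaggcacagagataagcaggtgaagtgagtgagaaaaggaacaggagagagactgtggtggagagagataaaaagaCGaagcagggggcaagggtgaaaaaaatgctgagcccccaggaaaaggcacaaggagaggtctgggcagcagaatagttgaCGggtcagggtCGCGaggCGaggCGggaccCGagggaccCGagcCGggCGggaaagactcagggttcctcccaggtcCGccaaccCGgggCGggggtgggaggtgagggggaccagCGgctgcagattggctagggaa

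Promoters were found for 32 of the 49 genes, 35 in all. They held a median of 26 CpGs (range 4 to 58), against 13 over 21263 promoters of 17492 protein-coding genes, and 68.6% of them held at least 20 CpGs against 35.9%. The 9 promoters of genes called at 28 against 3 months had a median of 25 CpGs and the 18 of tested genes that did not had 29.5. The letters CTTTGAT or CTTTGAA, words bound by the TCF and LEF partners of beta-catenin, were searched on both strands and occurred in 3 of the 35 promoters (8.57%), against 7.57% of the protein-coding promoters. None of the 3 sequences shown holds either word.

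Among the ligands and their secretion genes 3 of 12 were higher at 28 than at 3 months and none was lower. This was 25%, against 49.4% of all genes, 23.5% higher and 25.9% lower. Wnt10a, a beta-catenin-activating ligand known for its part in skin, hair and teeth (chr1:74791516-74804179, plus strand), had few counts, 510 over all mice, and was at 0 in 4 mice of 3 months, 1 of 15 months and 1 of 28 months. It reached at most 0.176 CPM in the youngest mice with a median of 0.0497, and 0.508 CPM in the oldest with a median of 0.284, where 16 of 18 mice exceeded the young median. The log2 difference was 2.30 (SE 0.35, adjusted p = 1.28e-07, edgeR), and 2.36 and 2.35 in library batches 1 and 3. It passed the count filter through the older mice, since 0 of 16 mice of 3 months and 10 of 18 of 28 months reached the filter's limit of 0.282 CPM, and so its call is a description of a gene let in where it was high and lends no weight to the counts of genes called. With no filter the difference was 2.29 (adjusted p = 2.14e-07). It had too few counts to be tested in batch 2 alone, with only these ages in the fit, or with at least 10 counts in every mouse. A part of it was present by 9 months, when Wnt10a ranged from 0.0236 to 0.325 CPM with a median of 0.104 (log2 difference to 3 months 1.25, SE 0.40, adjusted p = 0.0534). Without the 5 libraries that stood apart this step was 1.02 and did not pass (adjusted p = 0.160). The following steps did not pass the test.

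Its neighbour on chromosome 1, Wnt6 (chr1:74771892-74785322, plus strand), moved less. Wnt6 ranged from 0.457 to 1.08 CPM with a median of 0.806 at 3 months, and from 0.541 to 1.46 CPM with a median of 1.02 at 28 months (log2 difference 0.23, SE 0.11, adjusted p = 0.0921). Within the batches it was -0.12, 0.37 and 0.52, and so it did not hold in the first. With the muscle, fibroblast and colonocyte covariates it was 0.18 and did not pass (adjusted p = 0.230). Wnt10b (chr15:98770712-98778150, minus strand), a ligand close in sequence to Wnt10a, ranged from 0.221 to 0.507 CPM with a median of 0.415 in young mice and from 0.206 to 0.828 CPM with a median of 0.495 in old mice. Its spread was wider at 28 months, and the log2 difference of 0.35 (SE 0.17, adjusted p = 0.0837) came to 0.56, 0.51 and 0.017 in the batches. With the mesothelium score as a covariate it was 0.12 (adjusted p = 0.631), and with the other 3 scores 0.33 (adjusted p = 0.111). Wnt10b went with the mesothelium score (r = 0.301, rho = 0.322, permutation p = 0.00576 and 0.0035, adjusted 0.0101 and 0.00613), at 0.237 without the 2 farthest mice and 0.277, 0.224 and 0.431 in the batches.

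The 2 most abundant ligands did not differ between 3 and 28 months but departed from a straight line in between. Wnt5a, the main ligand of the beta-catenin-independent branch (chr14:28504750-28527448, plus strand), ranged from 13.6 to 27.5 CPM with a median of 21.1 at 3 months and from 18.4 to 27.6 CPM with a median of 24.8 at 9 months. The rise of 0.23 on the log2 scale passed the test (SE 0.079, adjusted p = 0.0777), was 0.22, 0.19 and 0.29 in the batches and was seen in 13 of 16 mice against the 3-month median. Without the 5 libraries that stood apart it was 0.19 and did not pass (adjusted p = 0.167). Nor did it pass without a low-count filter (adjusted p = 0.125), with only these ages fitted (adjusted p = 0.155) or at a threshold of 0.05. Wnt5a then had medians of 23, 20.7 and 19.6 CPM at 15, 24 and 28 months, where the step from 15 to 24 months did not pass (-0.13, adjusted p = 0.307) but did with the muscle, fibroblast and colonocyte covariates (-0.25, adjusted p = 0.0166), and the difference between 28 and 3 months lay between -0.21 and 0.089. Wnt2b, a beta-catenin-activating ligand of the stroma (chr3:104945272-104961921, minus strand), went the other way. Wnt2b had a median of 7.90 CPM at 3 months (range 5.75 to 10.5), which was 6.84 at 9 months (5.07 to 9.64) and 7.13 by 15 months (4.70 to 8.16), and then 7.98 in mice of 24 months (5.39 to 11.3) and 8.67 in those of 28 months (5.76 to 11.3). The step from 15 to 24 months passed the test with a log2 difference of 0.24 (SE 0.087, adjusted p = 0.0773), although it was 0.0052, 0.25 and 0.51 in the batches and 12 of 17 mice lay above the 15-month median. With the muscle, fibroblast and colonocyte covariates this Wnt2b step was 0.086 (adjusted p = 0.526) and with the mesothelium score 0.19 (adjusted p = 0.173), and neither passed. That from 3 to 9 months, of -0.22, did not pass (adjusted p = 0.135) except with the mesothelium score (-0.23, adjusted p = 0.0912).

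Both were among the 6 of 38 genes that departed from a straight line in age (15.8%, against 16.2% of all genes), with adjusted p of 0.0526 for Wnt5a and 0.0261 for Wnt2b. Wnt2, a stromal ligand of the lung and gut, also departed (adjusted p = 0.0898) at a low level, with mean values of 0.219, 0.306, 0.251, 0.300 and 0.226 CPM at the 5 ages, although none of its steps between neighbouring ages passed the test. The remaining ligands, Wnt4, Wnt5b, Wnt9a and Wnt11, and the secretion genes Porcn and Wls did not differ between 3 and 28 months. Wls had the narrowest interval (-0.14 to 0.0050), and Wnt9a, with a median of 0.770 CPM in young and 0.846 CPM in old mice, the widest of the 6 (-0.076 to 0.47). Over all 5 ages together Wls and Wnt11 did pass the test (adjusted p = 0.0497 and 0.0930).

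**Figure D4:**
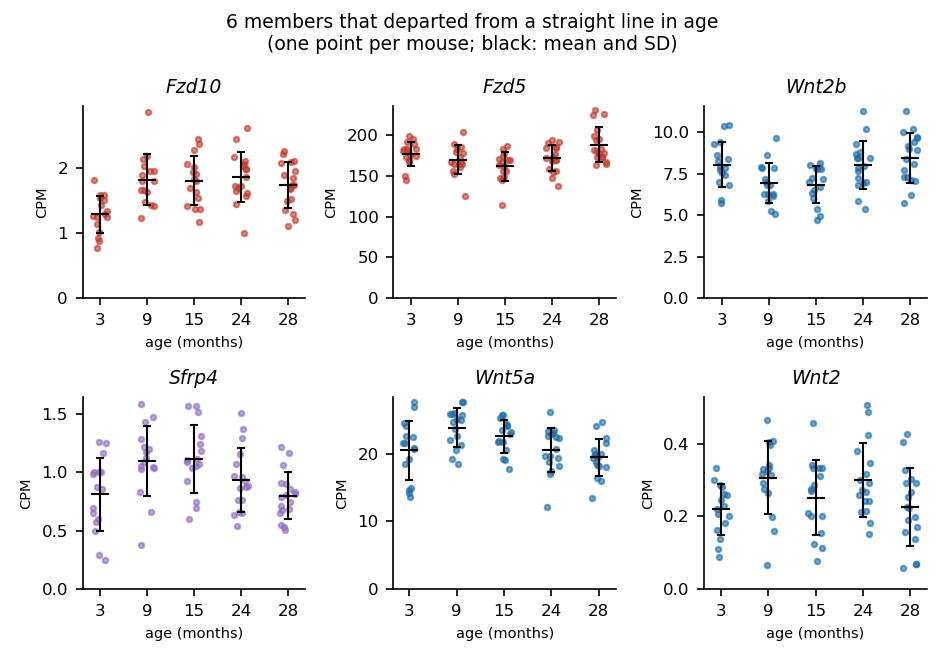
CPM of the 6 genes that departed from a straight line in age, 1 point per mouse at 3, 9, 15, 24 and 28 months, with the mean and SD in black. Fzd10 is low at 3 months only (median 1.28 CPM), Wnt5a and Sfrp4 are highest at 9 to 15 months, and Fzd5 and Wnt2b are lowest there.

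Of the 15 receptors and coreceptors 2 were higher and 2 lower in the oldest mice (26.7%, against 49.4% of all genes, 23.5% higher and 25.9% lower). Fzd10, a Frizzled (chr5:128600844-128604093, plus strand), was set apart by its timing. Fzd10 ranged from 0.768 to 1.81 CPM with a median of 1.28 at 3 months, and from 1.23 to 2.86 CPM with a median of 1.80 at 9 months, when 15 of 16 mice exceeded the young median. The log2 difference of 0.49 (SE 0.11, adjusted p = 0.00263, edgeR) was 0.43, 0.34 and 0.70 in the batches. Afterwards its medians were 1.82, 1.86 and 1.74 CPM at 15, 24 and 28 months, no further step passed the test, and the difference between 28 and 3 months was 0.42 (SE 0.11, adjusted p = 8.12e-04). Its departure from a straight line had the lowest adjusted p of the 38 genes (0.00873). Fzd10 went against the mesothelium score (r = -0.384, rho = -0.346, permutation p = 0.00034 and 0.00127, adjusted 0.00068 and 0.00254; -0.333 without the 2 farthest mice, and -0.442, -0.330 and -0.417 in the batches), and with the score as a covariate its difference between 28 and 3 months was 0.57 (SE 0.11, adjusted p = 3.15e-05).

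Fzd6, a Frizzled known for its part in planar polarity (chr15:39006034-39038188, plus strand), was higher in old mice. Fzd6 ranged from 7.74 to 14.3 CPM with a median of 10.5 at 3 months and from 9.27 to 18.8 CPM with a median of 14.1 at 28 months, where 17 of 18 mice lay above the young median. The log2 difference was 0.38 (SE 0.078, adjusted p = 5.59e-05) and within the batches 0.34, 0.48 and 0.35. No step between neighbouring ages passed the test with all mice in the fit, and the departure from a straight line did not either (adjusted p = 0.681). The step from 15 to 24 months, of 0.18 (adjusted p = 0.128), passed without the 5 libraries that stood apart (0.22, adjusted p = 0.0408) and with only these ages fitted (adjusted p = 0.0876).

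Fzd1, a Frizzled that can act through beta-catenin (chr5:4753839-4758035, minus strand), ranged from 30.6 to 46.7 CPM with a median of 33.7 in young mice and from 24.0 to 35.1 CPM with a median of 29.4 in old mice, of which 5 of 18 lay above the young median. It fell by 0.21 on the log2 scale (SE 0.057, adjusted p = 0.00252), and by 0.26, 0.14 and 0.18 in the batches. Fzd1 went with the mesothelium score (r = 0.469, rho = 0.433, permutation p = 2e-05 and 4e-05, adjusted 9.33e-05 and 0.000187; 0.459 without the 2 farthest mice, and 0.487, 0.559 and 0.344 in the batches), although it fell with age while the score rose, and with the score as a covariate it fell by 0.31 (SE 0.059, adjusted p = 1.51e-05). Ryk, a receptor with an inactive kinase domain (chr9:102834917-102908305, plus strand), had the smallest difference that passed, with a range of 52.3 to 66.2 CPM and a median of 58.9 at 3 months, and of 49.5 to 63.6 CPM and a median of 55.9 at 28 months. It fell by 5.62% (log2 difference -0.083, SE 0.026, adjusted p = 0.00739), with 3 of 18 old mice above the young median. Within the batches Ryk had differences of -0.069, -0.026 and -0.11, none of which passed the test in its batch alone (adjusted p = 0.378, 0.759 and 0.125). Fzd3, a Frizzled of axon guidance and planar polarity (chr14:65192449-65262463, minus strand), had a range of 12.8 to 17.5 CPM and a median of 15.2 at 15 months, and of 10.2 to 16.0 CPM and a median of 13.3 at 24 months. It fell by 0.17 on the log2 scale over this step (SE 0.067, adjusted p = 0.0940), with values of -0.11, -0.17 and -0.22 in the batches and 1 of 17 mice above the 15-month median. With the mesothelium score this step was -0.15 and did not pass (adjusted p = 0.172), nor did it with DESeq2's size factors in edgeR (-0.17, adjusted p = 0.103), and its difference between 28 and 3 months did not pass the test (-0.22 to 0.039).

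Fzd5, the most abundant gene of the set and a beta-catenin-activating Frizzled of the gut epithelium (chr1:64730558-64737751, minus strand), had medians of 181, 167, 165, 172 and 181 CPM over the ages, and its ranges overlapped throughout (145 to 199 CPM at 3 months, 115 to 186 CPM at 15 months, 163 to 231 CPM at 28 months). Its departure from a straight line passed the test (adjusted p = 0.0184), as did the step from 24 to 28 months (log2 difference 0.13, SE 0.049, adjusted p = 0.0992; 0.24, -0.012 and 0.15 in the batches). With the muscle, fibroblast and colonocyte covariates this step was 0.10 and did not pass (adjusted p = 0.172). No difference was detected in the coreceptors. Lrp5 had a median of 84.7 CPM at 3 months and 85.9 CPM at 28 months (95% interval of the log2 difference -0.099 to 0.10), and Lrp6 had medians of 160 and 151 CPM (-0.13 to 0.029). Neither passed the test over all 5 ages (adjusted p = 0.769 and 0.663). Fzd7, a Frizzled of the intestinal stem cell, also had a narrow interval (-0.061 to 0.12). The intervals of Fzd2, Fzd4, Ror1 and Ror2 just included 0 and reached at most 0.31, that of Fzd8 ran from -0.18 to 0.0016, and that of Fzd9 was wider (-0.14 to 0.33). Over all 5 ages together Fzd4 and Fzd2 did pass the test (adjusted p = 0.00937 and 0.0844), with medians of 21.5, 20.4, 20.6, 22.1 and 23.4 CPM for Fzd4.

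**Figure D5:**
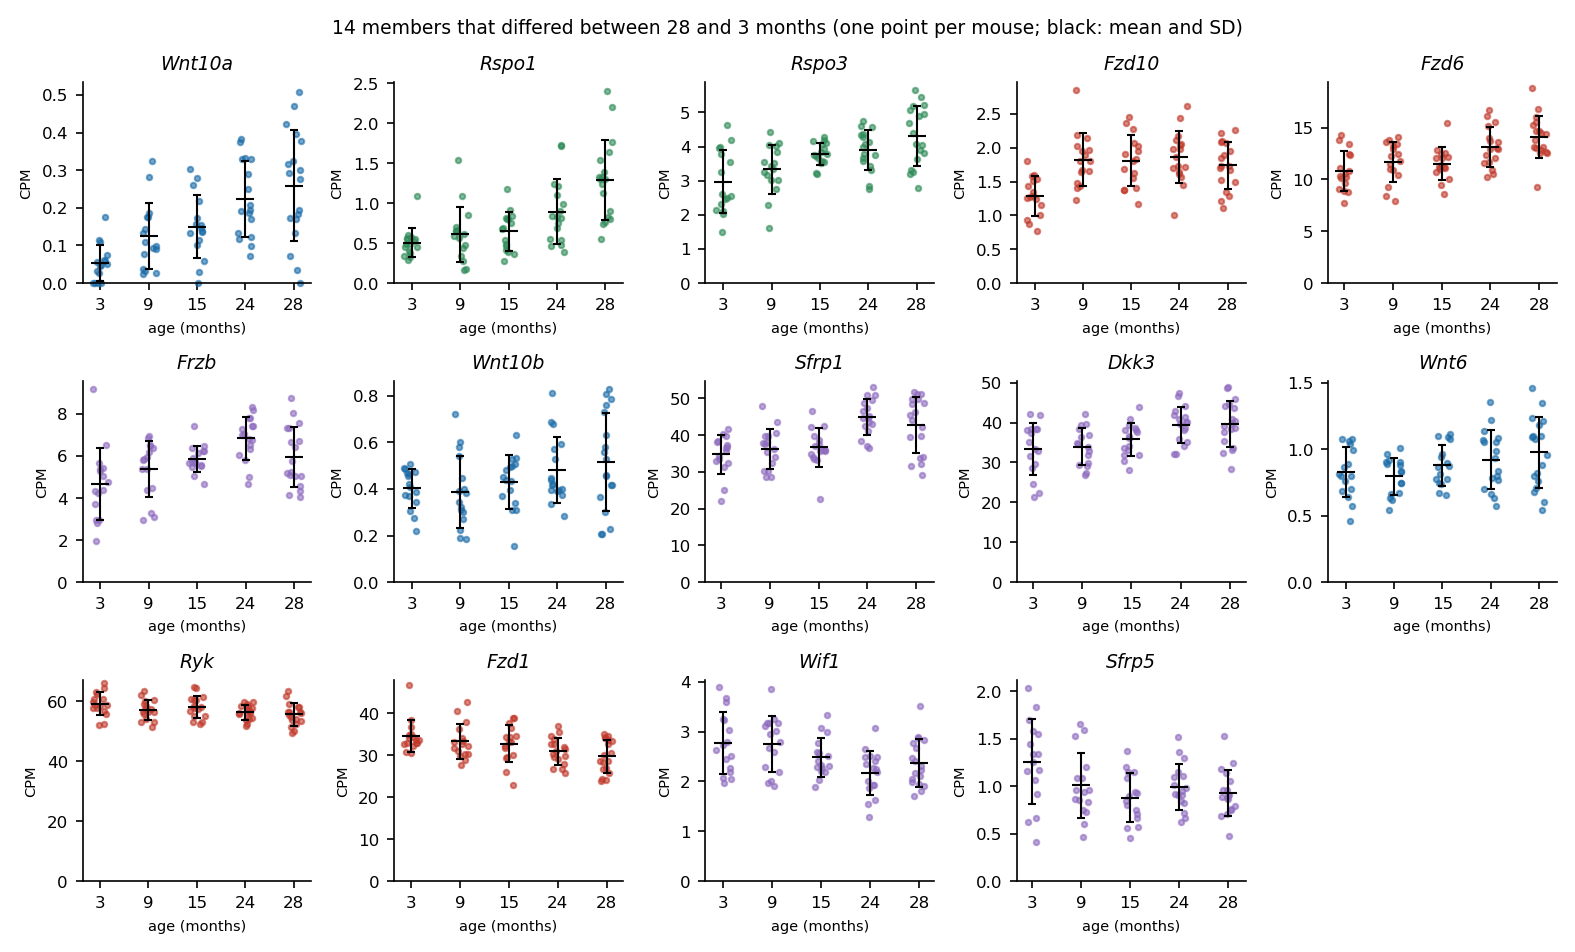
CPM of the 14 genes called at 28 against 3 months, 1 point per mouse at 3, 9, 15, 24 and 28 months, with the mean and SD in black. The groups overlap in every panel, and Rspo1 reaches 2.40 CPM at 28 months against at most 1.08 CPM at 3 months.

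Of the 8 tested antagonists 3 were higher and 2 lower at 28 months (62.5%, against 49.4% of all genes, 23.5% higher and 25.9% lower). Sfrp1, the second most abundant antagonist by TPM and a stromal protein that binds Wnts (chr8:23411502-23449632, plus strand), stepped up late. Sfrp1 ranged from 22.5 to 46.7 CPM with a median of 35.9 at 15 months and from 36.6 to 53.1 CPM with a median of 44.8 at 24 months, when all 17 mice lay above the 15-month median. The step of 0.30 on the log2 scale (SE 0.076, adjusted p = 0.00729, edgeR) had the lowest adjusted p of the set at these ages and was 0.24, 0.31 and 0.41 in the batches. With the muscle, fibroblast and colonocyte covariates it was 0.18 (adjusted p = 0.0655). The difference between 28 and 3 months was also 0.30 (SE 0.075, adjusted p = 7.48e-04), with a range of 22.2 to 41.6 CPM at 3 months and 29.3 to 51.7 CPM at 28 months. A departure from a straight line was not detected for it (adjusted p = 0.311).

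Dkk3, the most abundant antagonist by TPM and a divergent member of its family (chr7:112116017-112159057, minus strand), ranged from 21.4 to 42.3 CPM with a median of 34.2 in young mice. In old mice it ranged from 28.3 to 48.9 CPM with a median of 39.6. The log2 difference was 0.25 (SE 0.071, adjusted p = 0.00295), with 0.18, 0.31 and 0.32 in the batches. Frzb, also called Sfrp3 (chr2:80411970-80447625, minus strand), ranged from 1.93 to 9.18 CPM with a median of 4.57 and from 4.05 to 8.76 CPM with a median of 5.49 (log2 difference 0.36, SE 0.12, adjusted p = 0.0108; 0.31, 0.35 and 0.49 in the batches). In both 14 of 18 old mice exceeded the young median. The antagonists that rose went with the mesothelium score, Dkk3 with r = 0.464 and rho = 0.439 (permutation p = 2e-05 and 3e-05, adjusted 9.33e-05 and 0.000187), Frzb with 0.389 and 0.388 (permutation p = 0.00034 for each, adjusted 0.00068 and 0.000952) and Sfrp1 with 0.381 and 0.357 (permutation p = 0.00033 and 0.00116, adjusted 0.00068 and 0.00254). Without the 2 farthest mice r was 0.429, 0.396 and 0.380, and its lowest value in a batch was 0.337, 0.354 and 0.365. With the mesothelium score as a covariate neither Dkk3 nor Frzb passed the test, with differences of 0.12 for Dkk3 (adjusted p = 0.185) and 0.18 for Frzb (adjusted p = 0.247), whereas Sfrp1 did (0.19, adjusted p = 0.0557). With the muscle, fibroblast and colonocyte covariates the 3 differences were smaller but passed, at 0.13 for Dkk3 (adjusted p = 0.00194), 0.20 for Frzb (adjusted p = 0.0304) and 0.19 for Sfrp1 (adjusted p = 0.00702).

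Sfrp5, a secreted Wnt-binding protein whose gene is on chromosome 19 (chr19:42197971-42202252, minus strand), was lower with age. Sfrp5 ranged from 0.414 to 2.03 CPM with a median of 1.30 at 3 months and from 0.470 to 1.53 CPM with a median of 0.895 at 28 months, and 1 of 18 old mice lay above the young median. It fell by 0.45 on the log2 scale (SE 0.15, adjusted p = 0.00887), and by 0.38, 0.54 and 0.37 in the batches. Its median was 0.946 CPM at 9 months, a step that did not pass the test (log2 difference -0.35, adjusted p = 0.167) except without the 5 libraries that stood apart (-0.52, adjusted p = 0.0300) and in 1 other alternative. Wif1, which binds and holds Wnts outside the cell (chr10:121033960-121100650, plus strand), ranged from 1.97 to 3.90 CPM with a median of 2.67 in young and from 1.71 to 3.51 CPM with a median of 2.27 in old mice (log2 difference -0.22, SE 0.095, adjusted p = 0.0509). Within the batches it was -0.28, 0.038 and -0.39, so that it did not hold in the second, and with the mesothelium score as a covariate it was -0.18 (adjusted p = 0.178).

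Sfrp4 (chr13:19623104-19632994, plus strand) was highest in midlife. Sfrp4 ranged from 0.253 to 1.26 CPM with a median of 0.867 at 3 months and from 0.381 to 1.59 CPM with a median of 1.10 at 9 months (log2 difference 0.45, SE 0.16, adjusted p = 0.0809; 0.23, 0.48 and 0.70 in the batches), and its median was again 0.798 CPM at 28 months. Without the 5 libraries that stood apart the step to 9 months was 0.35 and did not pass (adjusted p = 0.246), and with the muscle, fibroblast and colonocyte covariates it was 0.31 and did not either (adjusted p = 0.180). It departed from a straight line (adjusted p = 0.0267), as did no other antagonist. Dkk2 and Sfrp2 did not differ between 3 and 28 months, with wide intervals of -0.27 to 0.31 and -0.14 to 0.62.

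By step, 4 of the 38 genes were higher at 9 than at 3 months and none lower (10.5%, against 8.69% of all genes, 3.64% higher and 5.05% lower), namely Fzd10, Wnt10a, Wnt5a and Sfrp4. Without the 5 libraries that stood apart 2 were called, Fzd10 (0.46, adjusted p = 0.0136), higher, and Sfrp5 (-0.52, adjusted p = 0.0300), lower, and with all libraries Fzd10 alone of the 4 passed a threshold of 0.05. Between 9 and 15 months 0 differed by edgeR and 1 had an unadjusted p below 0.05, Fzd9, against 0.431% of all genes called; DESeq2 called 0. Between 15 and 24 months 3 differed (7.89%, against 13.5% of all genes, 6.28% higher and 7.24% lower), with Sfrp1 and Wnt2b higher and Fzd3 lower, and between 24 and 28 months 2, Rspo1 and Fzd5, both higher (5.26%, against 11.7% of all genes, 5.66% higher and 6.01% lower). Over all 5 ages 22 of the 38 passed (57.9%, against 54.9%). The share called was thus close to or below that of all genes in these comparisons. Neighbouring steps share the mice of the age between them and are not independent.

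Beyond the ligands and receptors, 4 lists of other genes of the pathway were read at 28 against 3 months. Their counts stand against 49.4% of all genes called in this comparison, 23.5% higher and 25.9% lower. Of 18 tested membrane regulators, proteins that tune receptors or ligands at the cell surface, 15 differed, 10 higher and 5 lower (median log2 difference 0.14, beside -0.0087 over all genes). Kremen2, which takes Lrp coreceptors from the surface together with Dkk1, fell from 12.5 ± 2.47 CPM at 3 months over 7.22 ± 1.64, 5.57 ± 1.57 and 2.96 ± 0.588 CPM at the ages between to 2.35 ± 0.433 CPM in the oldest mice (log2 difference -2.40, SE 0.12, adjusted p = 4.93e-31, edgeR). Tpbg, a Wnt-modulating membrane protein, fell from 8.46 ± 0.646 to 4.93 ± 0.797 CPM (-0.78, SE 0.067, adjusted p = 1.65e-16). Among those that passed, the 2 largest rises of this list were Reck, a partner of Wnt7 reception in blood vessels (0.31, SE 0.090, adjusted p = 0.00393), and Gpc3, a glypican (0.30, SE 0.14, adjusted p = 0.0726).

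For the R-spondins their own receptors and substrates were read from the same list. Lgr4 was higher (0.13, adjusted p = 0.0113) and Lgr5, the stem cell marker, lower (-0.26, adjusted p = 0.0232), with 8.88 ± 0.897 CPM at 3 months and 7.37 ± 1.52 CPM at 28 months. Rnf43 and Znrf3, the ubiquitin ligases that R-spondins hold back, were both higher (0.20, adjusted p = 0.00171, and 0.14, adjusted p = 0.00809). Both are also target genes of beta-catenin, a list of which 11 of 19 differed, 6 higher and 5 lower (median -0.044), where 49.4% of all genes were called. The 2 largest rises that passed were Nkd2 (0.37, SE 0.15, adjusted p = 0.0370) and Sp5 (0.33, SE 0.12, adjusted p = 0.0206), and the 2 largest falls Notum, a secreted enzyme that removes the lipid from Wnts (-0.76, SE 0.18, adjusted p = 2.85e-04), and Tnfrsf19 (-0.45, SE 0.069, adjusted p = 1.39e-07). Axin2, a target in wide use as a readout, was higher by 0.12 (SE 0.058, adjusted p = 0.0818). The target genes thus did not move in 1 direction.

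In the canonical branch inside the cell 9 of 29 differed, 5 higher and 4 lower (median -0.014), a share below the 49.4% of all genes. The largest falls among these 9 were those of Pygo2, a nuclear cofactor of beta-catenin (-0.21, SE 0.049, adjusted p = 3.09e-04), and Tcf7l1, a TCF that acts mainly as a repressor (-0.21, SE 0.069, adjusted p = 0.0122), and the largest rises those of Axin2 and Dvl2 (0.12 for each, adjusted p = 0.0818 and 0.0901). Ctnnb1, which encodes beta-catenin, fell from 1091 ± 68.1 to 953 ± 41.5 CPM (-0.19, SE 0.033, adjusted p = 1.41e-06). Of 20 planar polarity and other noncanonical genes 9 differed, 4 higher and 5 lower (median -0.032), a share near that of all genes, among them Celsr3 (-0.47, adjusted p = 9.42e-05) and Fuz (-0.29, adjusted p = 1.74e-05) as the largest falls and Ptk7 (0.26, adjusted p = 4.45e-05) and Camk2g (0.20, adjusted p = 0.00854) as the largest rises. The lists share genes, such as Lgr5, Notum, Rnf43, Znrf3 and Axin2, and Ptk7 is on 2 of them.

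Markers of several cell types also differed between these ages, at which 49.4% of all genes were called. Fewer did in other lists, with 0 of 3 for interstitial cells of Cajal, 0 of 4 for enteric glia and 0 of 3 for plasma cells. In each of the enteric neuron and colonocyte lists 1 of 6 was lower, and 1 of 4 adipocyte markers was higher. Of the tuft cell markers 4 of 4 were lower, with sums of 47.2 to 64.8 CPM at 3 months and 25.8 to 50.9 CPM at 28 months, and of the goblet cell markers 4 of 5 were lower and 1 higher, with sums of 27940 to 37510 CPM and 22650 to 32820 CPM. Of the stem cell markers 1 of 3, Lgr5, was lower, and of the enteroendocrine markers 3 of 5 were lower (374 to 646 CPM and 351 to 562 CPM). Among stromal lists, the PDGFRA-high subepithelial cells, a known source of Wnt5a below the epithelium, had 2 markers higher and 2 lower of 5, and of the CD34 submucosal stromal markers 1 of 4 was higher, Grem1. Fibroblast markers were higher in 2 and lower in 1 of 5, with sums of 336 to 688 CPM at 3 months and 410 to 731 CPM at 28 months. In immune cells 4 of 5 macrophage markers were higher (96.2 to 148 CPM and 92.3 to 221 CPM), 2 of 3 B cell markers were lower (4.70 to 57.7 CPM and 4.16 to 20.3 CPM) and 1 of 5 T cell markers was higher. None of their genes was at 0 in every mouse. Scores of the fibroblast, smooth muscle and colonocyte markers were fitted together as covariates, which kept 12 of the 14 calls at 28 against 3 months, lost Wnt6 and Wnt10b and added Fzd8 and Wls, both lower. The part of the other lists of this paragraph in the differences of the Wnt genes was not tested.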

How the data were processed

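RNA-seq was read in the colon of 83 male mice, grouped by the age in the labels. The authors trimmed reads with cutadapt 2.8, aligned them to GRCm38 with HISAT2 2.1.0, kept unique alignments with SAMtools 1.9 and counted read pairs per gene by strand with featureCounts (Subread 2.0.1), as their methods and processing notes state. The deposited values are whole-number counts without normalization, and replicates were not pooled.

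Gene names, positions and merged exon lengths came from GENCODE on GRCm38, an earlier release than the authors used, which held 37652 of 37764 genes. The 112 others entered no TPM. Genes were filtered with filterByExpr by age (18325 kept) and scaled by TMM, and age and library batch were fitted over all mice with edgeR 4.0.16 in R 4.3.3. The quasi-likelihood test was adjusted by Benjamini-Hochberg within each comparison, with the study's threshold of 0.1. Departure from a straight line was an F-test of the polynomial terms of age above the linear one. CPM is relative to the TMM-scaled library, and TPM was computed from counts and exon lengths. Permutation tests used Python 3.11.15 with numpy 2.4.6 and scipy 1.17.1, and were two-sided. They shuffled the deviations over all mice and not within age and batch.

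Simulated counts of 18245 genes at 28 against 3 months served as a check of the test. It called 81 of 98 genes changed by 0.5 and 99 of 100 changed by 1 on the log2 scale, with 10 unchanged genes among 190 called. The simulation held no batch effect and few changed genes, whereas 49.4% of all genes were called in the data. Smaller changes, such as those called in Ryk, Fzd1, Dkk3 and Sfrp1, were not simulated. Every one of 649 same-age pairs of libraries differed beyond sampling noise (chi-square over degrees of freedom at least 11.8), so no library was counted as a repeat.

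The members, pathway lists and marker lists were chosen with earlier results of these data known. Full values are given for members past the threshold at 28 against 3, 9 against 3 or 24 against 15 months, and for the 2 largest rises and falls past the threshold in each pathway list. Fzd5, Wnt2, Lgr4, Lgr5, Rnf43, Znrf3 and Ctnnb1 were added after their values were seen. Promoters came from RefSeq on GRCm38.p6.

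The alternatives were DESeq2 1.42.0, its size factors in edgeR, no low-count filter, at least 10 counts in every mouse, a fit free of the batch term, a replicate block, muscle, fibroblast and colonocyte scores as covariates, a threshold of 0.05, each library batch alone, only the 2 ages compared and, chosen after seeing the data, a mesothelium score as covariate and leaving out 5 libraries.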

Additional observations from a re-analysis of the deposited data

How the results depend on the processing

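The number of genes that differed between 28 and 3 months (14) stayed between 10 and 18 under every alternative that kept all 3 library batches, and was 5 in each batch alone. DESeq2, and its size factors in edgeR, called 18 each (14 higher and 4 lower), which held the 14, and added Fzd2, Fzd4, Porcn and Ror2. The muscle, fibroblast and colonocyte covariates gave 8 higher and 6 lower. Over all ages 22 genes became 4, 4 and 3 within the batches, and the departures from a straight line 0 of 6 in each, where far fewer mice were fitted. At 9 against 3 months the 4 calls became 2 without a low-count filter, 2 with at least 10 counts in every mouse, 1 at a threshold of 0.05, 0 in each batch, 1 with only these ages fitted, 2 without the 5 libraries that stood apart and 5 with the mesothelium covariate, which added Wnt2b (lower); the muscle, fibroblast and colonocyte covariates left 4, with Sfrp5 in place of Sfrp4. At 24 against 15 months the 3 calls became 1 without a low-count filter, 2 with DESeq2's size factors in edgeR (without Fzd3), 5 with the muscle, fibroblast and colonocyte covariates (Sfrp1 higher, and Fzd1, Fzd3, Sfrp4 and Wnt5a lower), 1 at a threshold of 0.05, 0 in each batch, 6 with only these ages fitted (adding Dkk3, Frzb and Fzd6), 1 with the mesothelium covariate and 4 without the 5 libraries (adding Fzd6). At 28 against 24 months the 2 calls became 1 with at least 10 counts in every mouse, 0 at a threshold of 0.05, 0 in each batch, 1 with only these ages fitted and 3 with the mesothelium covariate (Fzd5, higher, with Frzb and Sfrp4, lower). Without a low-count filter 2 were called there, but they were Rspo4 and Wnt9b, in place of Rspo1 (adjusted p = 0.146) and Fzd5 (adjusted p = 0.167), and with the muscle, fibroblast and colonocyte covariates Rspo1 and Rspo3. The causes were not tested beyond these settings. The counts of this paragraph stand without the share of all genes called under each setting. They therefore do not tell a change particular to these genes from one in all genes. No member was called at 15 against 9 months under any alternative.

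Of the single genes at 28 against 3 months, Fzd6 and Rspo1 stayed called in every alternative that could be fitted for them. Wnt10a was called in the 11 alternatives that could be fitted for it. It had passed the count filter through the older mice, so this record lends its call no weight. Wif1, Wnt10b and Wnt6 lost the call in 8 alternatives each, among them no low-count filter, the replicate block and a threshold of 0.05. Wif1 reversed in library batch 2 (0.038) and Wnt6 in batch 1 (-0.12). Among 522 values of the 38 genes at these ages over the alternatives 34 had another sign than the main value, and the other 32 were of genes called under neither.

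With the replicate number as a block, 11 genes were called at 28 against 3 months, without Wif1, Wnt10b and Wnt6. At 28 against 24 months 0 were called, where Rspo1 and Fzd5 had been. The numbers did not pair the mice: over 161 pairs of mice with the same number the deviations from the age means correlated with a median of 0.0143 (range -0.298 to 0.318), against -0.00368 for other pairs. At these depths 11 genes stayed below the filter, and Wnt10a, with a median of 5 counts per mouse, had the widest SE of those called; whether deeper sequencing would change this was not tested.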
